A study of Mus musculus with 6 samples.

Results

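The let-7 family with its relative miR-98 was followed through 10 mature strands: the guide strands mmu-let-7a-5p, mmu-let-7b-5p, mmu-let-7c-5p, mmu-let-7d-5p, mmu-let-7e-5p, mmu-let-7f-5p, mmu-let-7g-5p, mmu-let-7i-5p and mmu-miR-98-5p, and mmu-let-7d-3p, the passenger strand of let-7d. They were taken by name, written from here on without the mouse prefix, and all 10 were among the 685 mature miRNAs listed in every library. Small RNA was sequenced from N2a cells, a mouse neuroblastoma line, which had been differentiated with 10 µM retinoic acid over 96 h. One group then received 5 µM RSL3 for 24 h and the control group received the solvent DMSO. RSL3 blocks GPX4, an enzyme that repairs oxidised membrane lipids, and sets off ferroptosis, a form of cell death that needs iron. With 3 libraries per group, the question is whether these strands differ between RSL3 and DMSO in retinoic acid-treated N2a cells. Both groups carried the retinoic acid, and no library from undifferentiated cells is analysed here. Separate cultures are not named in the labels. The p-values therefore reflect only how far these libraries spread, and that spread may be technical.

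The let-7 miRNAs are made from hairpin precursors cut by Drosha in the nucleus and Dicer in the cytoplasm. The guide strand is loaded into an Argonaute protein and pairs with messenger RNAs mainly through its seed, bases 2 to 8, while the passenger strand is mostly discarded. The family is scarce in stem cells, where the RNA-binding proteins LIN28A and LIN28B block its maturation, and it accumulates as neurons differentiate. Its known targets include Lin28a, Lin28b, Hmga2 and members of the Ras and Myc families.

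The mature sequences are shown because all 9 guides share the seed GAGGUAG and differ only outside it, so that the members are told apart by few bases. Sequences are from RefSeq (GRCm38.p6), 5′ to 3′, with the seed in capitals.
let-7a-5p: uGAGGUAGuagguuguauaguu
let-7b-5p: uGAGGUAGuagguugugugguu
let-7c-5p: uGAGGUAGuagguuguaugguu
let-7d-5p: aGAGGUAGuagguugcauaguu
let-7e-5p: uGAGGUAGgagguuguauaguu
let-7f-5p: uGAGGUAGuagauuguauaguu
let-7g-5p: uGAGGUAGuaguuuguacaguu
let-7i-5p: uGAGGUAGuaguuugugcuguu
miR-98-5p: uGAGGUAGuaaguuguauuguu
let-7d-3p: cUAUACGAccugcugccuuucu

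All 10 strands are 22 nt long, so their levels can be compared without a correction for length, although adapter ligation can favour some ends over others. Over the 9 guides 14 of the 22 positions were identical. Counted from 1 at the 5′ end, let-7c-5p differed from let-7a-5p by A19G alone, let-7e-5p by U9G alone and let-7f-5p by G12A alone. The strand let-7b-5p carried A17G and A19G, let-7d-5p U1A and U16C, let-7g-5p G12U and U18C, and miR-98-5p G11A and A19U. The most distant from let-7a-5p was let-7i-5p, with G12U, A17G, U18C and A19U. Of the 36 pairs of guides, 4 were a single base apart (let-7a with let-7c, let-7e and let-7f, and let-7b with let-7c). How the authors assigned a read that matches several of these miRNAs is not given in the sources used here, so the split between such neighbours is uncertain. Among the 554 listed entries with a RefSeq mature sequence, the only other one with this seed was let-7k.

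The precursor of let-7d is shown because both of its arms are members, the 5p arm first and the 3p arm second, each in capitals.
let-7d hairpin: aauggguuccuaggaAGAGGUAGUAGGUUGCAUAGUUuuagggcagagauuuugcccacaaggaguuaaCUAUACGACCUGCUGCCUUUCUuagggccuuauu

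The 12 precursors lie in several clusters of the mouse genome (GRCm38, 1-based). On the minus strand of chromosome 13, let-7a-1 (48538179 to 48538272), let-7f-1 (48537829 to 48537917) and let-7d (48536012 to 48536114) lie in exons of the long non-coding RNA 6720427I07Rik. On the plus strand of chromosome 15, let-7c-2 (85706603 to 85706697) and let-7b (85707319 to 85707403) lie in exons of the non-coding transcript Lncppara. On the plus strand of chromosome X, let-7f-2 (151912346 to 151912428) and miR-98 (151913214 to 151913321) lie in an intron of Huwe1, which encodes a ubiquitin ligase. The precursors let-7c-1 (chromosome 16, 77599657 to 77599750, intron of Mir99ahg), let-7e (chromosome 17, 17830352 to 17830444, intron of Spaca6) and let-7a-2 (chromosome 9, 41536716 to 41536811, intron of 3110039I08Rik) lie on the plus strand next to members of the miR-99 and miR-125 families. The remaining precursors are let-7g (chromosome 9, 106178840 to 106178927, plus strand, intron of Wdr82) and let-7i (chromosome 10, 122985640 to 122985724, minus strand, exon of the pseudogene D630033A02Rik). The mature strands let-7a-5p, let-7c-5p and let-7f-5p each come from more than 1 of these loci, and their values sum over them.

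The tetranucleotide GGAG, known as the motif that LIN28 proteins bind in let-7 precursors, was searched on the hairpin strand. It occurred in 9 of the 12 let-7 and miR-98 hairpins (75%) and in 44.5% of the 1005 mouse hairpins of the same table. The 3 without it were let-7b, let-7c-2 and miR-98. A match is a description of the letters only.

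The listed miRNAs held 3406276 to 6058006 recovered reads per library, of which the 9 guides had 88413 to 182946. A single read was worth 0.157 to 0.314 CPM, so each guide rested on at least 294 reads in every library. Neuronal miRNAs were present, with a summed level of 6 markers of 21312 to 25354 CPM under DMSO and 19470 to 24760 CPM under RSL3. That sum was led by miR-218-5p, while miR-124-3p, the most neuron-specific of them, had only 135 to 221 CPM. Of 6 blood and immune markers, 3 were listed, with summed levels of 88.1 to 119 CPM under DMSO and 95.6 to 156 CPM under RSL3, and miR-142a-3p, miR-223-3p and miR-144-3p were not among the entries. The liver miRNA miR-122-5p had 1.41 to 5.96 CPM. The 4 markers of endothelium, fibroblasts and smooth muscle were all listed, and their sum did not overlap between the groups, at 2059 to 2395 CPM under DMSO and 1918 to 2026 CPM under RSL3. Its members went in opposite directions: miR-126a-3p, of endothelium, had 586 to 646 and 728 to 873 CPM, and miR-145a-5p, of smooth muscle, 868 to 1052 and 602 to 753 CPM. In limma 0 of the 4 were called, while 1 was higher and 2 were lower at an unadjusted p under 0.05. Of all tested miRNAs 8.86% were higher and 8.41% lower at that level, and 24.3% did not overlap in either direction. Among the neuronal markers 1 was higher and 0 were lower at that level, and the same held for the serum or liver markers. The neuronal miR-137-3p was lower without overlap, at 69.3 to 82.3 CPM under DMSO and 64.0 to 64.8 CPM under RSL3. The summed levels of 3 glial markers (137 to 178 and 143 to 190 CPM), 3 serum or liver markers (2641 to 3513 and 3013 to 3373 CPM) and the only listed pluripotency marker of 6, miR-295-3p (0.222 to 1.57 and 0.508 to 2.21 CPM), overlapped between the groups. The serum or liver sum was mostly miR-192-5p, at 2580 to 3421 CPM under DMSO and 2892 to 3304 CPM under RSL3. The part of other cell types in the results below was not tested.

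In both groups let-7c-5p was the most abundant guide and miR-98-5p the least abundant. In DMSO libraries the mean levels were 11965 CPM for let-7c-5p, 6755 CPM for let-7f-5p, 5132 CPM for let-7i-5p, 4917 CPM for let-7g-5p, 1456 CPM for let-7e-5p, 944 CPM for let-7a-5p, 408 CPM for let-7b-5p, 156 CPM for let-7d-5p and 126 CPM for miR-98-5p. The passenger strand let-7d-3p followed at 23.8 CPM. The order was identical in RSL3 libraries. Neighbours in this order did not overlap within a group, apart from let-7i-5p and let-7g-5p, whose libraries overlapped in both groups. In the ranking of all 685 entries let-7c-5p took places 12 to 18 and let-7d-3p places 331 to 360.

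**Figure D1:**
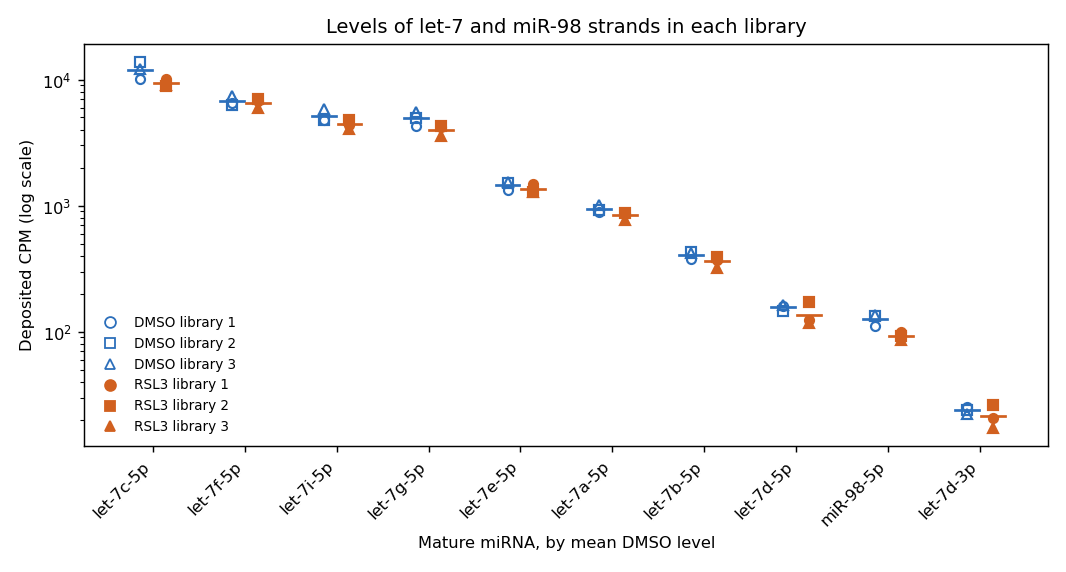
CPM of the 10 strands on a log axis, with open blue symbols for the 3 DMSO and filled orange symbols for the 3 RSL3 libraries and a bar at each group mean. The levels span from a DMSO mean of 23.8 CPM for let-7d-3p to 11965 CPM for let-7c-5p, and the RSL3 means lie slightly below the DMSO means in every strand.

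Every guide had a lower mean level after RSL3, by modest amounts, and no single member passed the test. The log2 fold changes of the 9 guides ran from -0.44 for miR-98-5p to -0.04 for let-7f-5p, with a median of -0.21, against a median of 0.00134 over the 666 miRNAs tested. Without RSL3 library 3 the median of the guides was -0.10. Negative log2 fold changes made up 49.8% of all tested miRNAs and 9 of 9 guides, or 10 of 10 members with let-7d-3p. These strands share libraries, near-identical sequences and precursors, so they do not count as independent observations. In bulk RNA, fewer cells of a type and less RNA per cell cannot be told apart.

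The test was limma on log2(CPM + 1), with p-values adjusted by the Benjamini-Hochberg method over all 666 miRNAs. A miRNA was called at an adjusted p under 0.05, which held for 0.751% of them (0.15% lower and 0.601% higher after RSL3). Of the 10 members 0 were called in either direction by limma, edgeR's quasi-likelihood test or DESeq2. In each of the 3 tools an unadjusted p under 0.05 was reached by 3 members on the lower side (let-7c-5p, let-7g-5p and miR-98-5p) and 0 on the higher side. With limma only 1 guide reached it once DMSO library 2, or RSL3 library 3, was left out. Among all miRNAs the lower side held 8.41% in limma, 8.11% in edgeR and 7.06% in DESeq2, and the higher side 8.86%, 8.86% and 7.21%. After adjustment edgeR called 0.901% of all miRNAs, 0.3% lower and 0.601% higher. DESeq2 called 5.41%, 2.85% lower and 2.55% higher, but it gave no adjusted p for 233 of the 666, and its calls were 8.31% of the other 433. The RSL3 and DMSO libraries did not overlap in 4 of the 10 members, all 4 lower, where 24.3% of all tested miRNAs were without overlap in either direction and 12% on the lower side.

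The least abundant guide, miR-98-5p, had the most negative log2 fold change. Its levels were 110, 133 and 136 CPM under DMSO 1 to 3 and 100, 92.3 and 85.6 CPM under RSL3 1 to 3. All RSL3 libraries lay below all DMSO libraries, with RSL3 library 1 and DMSO library 1 closest. The means were 126 ± 14.1 and 92.7 ± 7.26 CPM (SD, n = 3 per group). The log2 fold change was -0.44 ± 0.14 (SE, limma adjusted p = 0.10). The adjusted p was 0.059 with DESeq2 and 0.093 with edgeR.

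The most abundant guide, let-7c-5p, stood at 10130, 13710 and 12056 CPM under DMSO and 10026, 8831 and 9069 CPM under RSL3. The groups did not overlap, but DMSO library 1 and RSL3 library 1 were nearly level, and DMSO library 2 was well above the rest. The means were 11965 ± 1792 and 9309 ± 632 CPM (SD, n = 3 per group). The log2 fold change was -0.35 ± 0.14 (SE, limma adjusted p = 0.19). This guide comes from 2 loci, let-7c-1 and let-7c-2, which its level does not separate.

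The guide let-7g-5p, from an intron of Wdr82, stood at 4310, 4960 and 5482 CPM under DMSO and 4167, 4284 and 3590 CPM under RSL3. All RSL3 values lay below all DMSO values, by a narrow margin between DMSO library 1 and RSL3 library 2. Its log2 fold change was -0.29 ± 0.13 (SE, limma adjusted p = 0.26). The same narrow separation was seen in let-7a-5p, with 894, 927 and 1009 CPM under DMSO and 881, 873 and 770 CPM under RSL3 (limma adjusted p = 0.45, log2 fold change -0.17 ± 0.11 SE). Without RSL3 library 3 the value for let-7a-5p was -0.10.

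In the other 5 guides the groups overlapped. The guide let-7i-5p had 4811, 4761 and 5826 CPM under DMSO and 4336, 4803 and 4079 CPM under RSL3, where library 2 was level with the controls (log2 fold change -0.22, limma adjusted p = 0.38). For let-7b-5p the values were 377, 425 and 423 CPM against 372, 389 and 320 CPM (log2 fold change -0.18, limma adjusted p = 0.44). The strand let-7e-5p, which is made between miR-99b and miR-125a, was at 1321, 1520 and 1528 CPM under DMSO and 1493, 1288 and 1291 CPM under RSL3 (log2 fold change -0.10, limma adjusted p = 0.67). The values of let-7f-5p showed the least difference, with 6556, 6251 and 7459 CPM against 6735, 7012 and 5915 CPM. Its log2 fold change was -0.04 ± 0.12 (SE, 95% interval -0.31 to 0.22, limma adjusted p = 0.87), and its sign turned positive without DMSO library 3 or without RSL3 library 3. Single libraries also moved the others: let-7b-5p was at -0.099 without RSL3 library 3, let-7i-5p at -0.12 without DMSO library 3, and let-7e-5p at -0.17 without DMSO library 1 or RSL3 library 1.

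Both arms of let-7d had their extremes in the same libraries. The guide let-7d-5p had 160, 146 and 162 CPM under DMSO and 123, 171 and 117 CPM under RSL3, and let-7d-3p had 25.1, 23.7 and 22.4 CPM under DMSO and 20.6, 26.4 and 17.2 CPM under RSL3. For both arms RSL3 library 2 held the highest and RSL3 library 3 the lowest value of all 6 libraries. The log2 fold changes were -0.21 ± 0.15 for the 5p arm and -0.16 ± 0.19 for the 3p arm (SE), with limma adjusted p-values of 0.51 and 0.68. Without RSL3 library 2 they were -0.37 and -0.32, and without RSL3 library 3 -0.10 and -0.03 (limma adjusted p = 0.18 to 0.99).

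**Figure D2:**
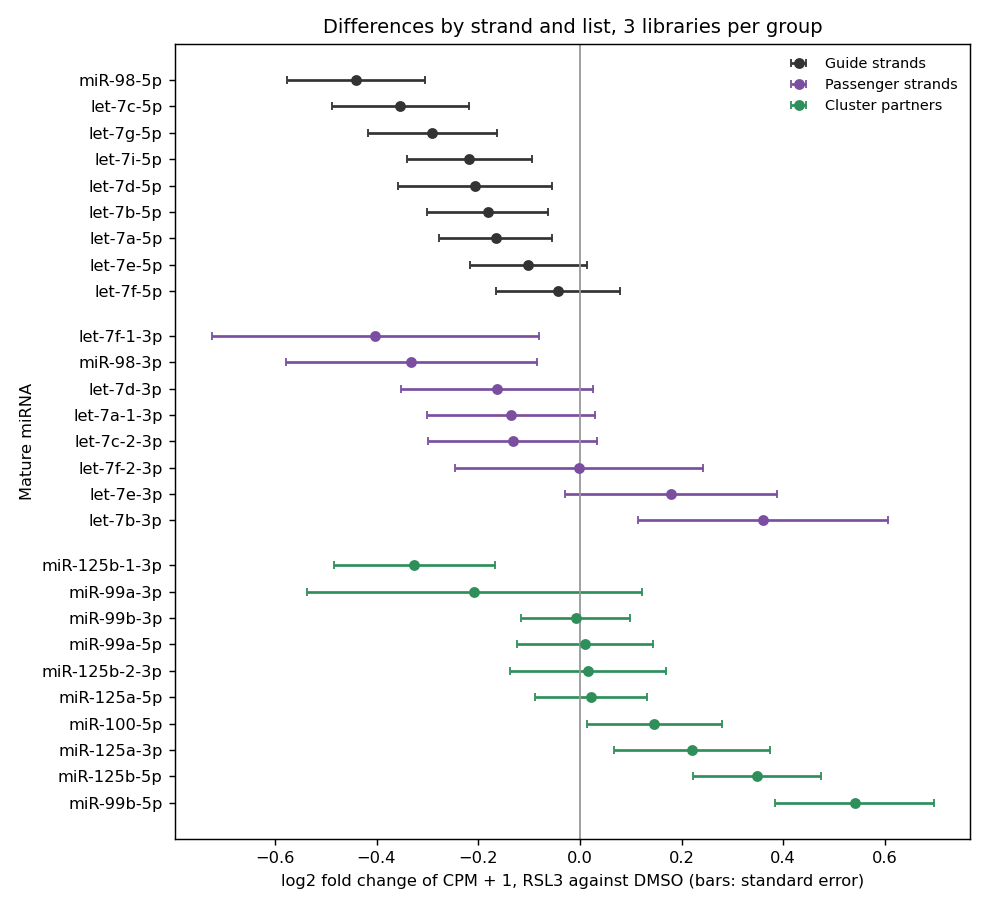
Log2 fold change of CPM + 1 between RSL3 and DMSO for the tested guide strands, passenger strands and cluster partners, with bars of 1 standard error and 3 libraries per group. All 9 guides lie left of 0, while the passengers and the partners from the miR-99, miR-100 and miR-125 families lie on both sides.

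The summed level of the 9 guides was 28670, 32831 and 34081 CPM under DMSO and 28235, 27744 and 25237 CPM under RSL3. Every RSL3 library lay below every DMSO library, although DMSO library 1 and RSL3 library 1 were close. The mean went from 31861 ± 2833 to 27072 ± 1608 CPM (SD, n = 3 per group), a ratio of 0.850, with a two-sided exact permutation p of 0.1, the smallest that 3 against 3 libraries allow. Of the listed miRNA signal the guides made up 3.25% ± 0.21 in DMSO and 2.65% ± 0.16 in RSL3 libraries (SD, n = 3 per group). Without let-7c-5p the ratio of the sums was 0.893 (exact permutation p = 0.2).

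The make-up of the family was compared through the share of each guide in the summed guide signal, which does not depend on the family's total. The share of let-7f-5p was 22.9%, 19.0% and 21.9% in DMSO and 23.9%, 25.3% and 23.4% in RSL3 libraries. The share of let-7e-5p was 4.61%, 4.63% and 4.48% against 5.29%, 4.64% and 5.12%, and that of miR-98-5p was 0.385%, 0.404% and 0.400% against 0.355%, 0.333% and 0.339%. In these 3 guides the groups did not overlap, with let-7f-5p and let-7e-5p holding more and miR-98-5p less of the family signal after RSL3. Each had an exact permutation p of 0.1, the smallest possible here, and 0.3 after adjustment over the 9 guides. The margin for let-7e-5p was narrow, between DMSO library 2 and RSL3 library 2. Shares are tied to each other, and let-7c-5p held the largest. As a log2 ratio to the geometric mean of the guides, let-7e-5p had an exact permutation p of 0.3. On that scale let-7f-5p and miR-98-5p kept an exact permutation p of 0.1. The share of let-7c-5p overlapped between groups, at 35.3%, 41.8% and 35.4% in DMSO and 35.5%, 31.8% and 35.9% in RSL3 libraries (exact permutation p = 0.6), with the highest value in DMSO library 2 and the lowest in RSL3 library 2. For let-7a-5p, let-7b-5p, let-7d-5p, let-7g-5p and let-7i-5p the shares overlapped too (exact permutation p = 0.2 to 0.9).

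**Figure D3:**
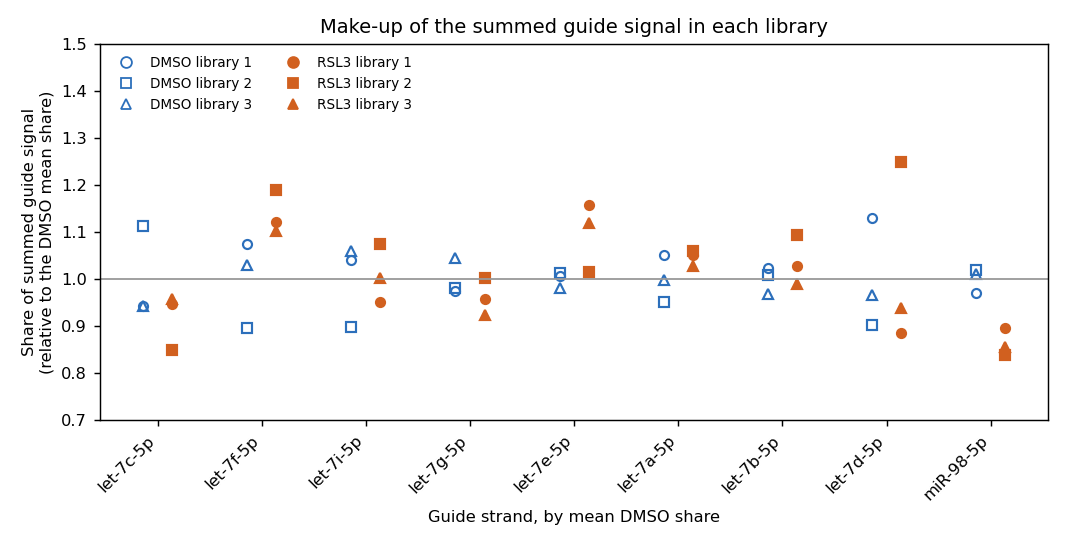
Share of each guide in the summed signal of the 9 guides, divided by its mean share in DMSO libraries, with 1 symbol per library. The RSL3 symbols of let-7f-5p and let-7e-5p lie above and those of miR-98-5p below all DMSO symbols.

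The let-7f-5p and miR-98-5p pair shares a precursor cluster within Huwe1, yet these guides had the least and the most negative log2 fold changes of the family. The let-7f-5p value also holds the product of let-7f-1 on chromosome 13, so the locus on chromosome X cannot be read from it alone. The difference between these guides was not tested beyond the shares above. Its chromosome 13 neighbours let-7a-5p and let-7d-5p had log2 fold changes of -0.17 and -0.21.

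Passenger strands were compared to see whether both products of a precursor moved alike. Of 12 passenger strands 11 were listed and 8 passed the filter of 1 CPM in at least 3 libraries. Of these 8, 0 were called by limma or edgeR. DESeq2 gave an adjusted p to 4 of them and called 0, and 0 reached an unadjusted p under 0.05 in any of them. Log2 fold changes were negative in 6 and positive in 2, with a median of -0.13. Since let-7a-1-3p and let-7c-2-3p hold the same reads, counting them once leaves 5 negative and 2 positive of 7, with a median of -0.14. Only miR-98-3p of the 8 was lower without overlap, a share near the 12% of all tested miRNAs. The strands with the smallest p were let-7b-3p at 0.36 (limma adjusted p = 0.47), miR-98-3p at -0.33 (0.51), let-7f-1-3p at -0.40 (0.54) and let-7d-3p. Leaving out RSL3 library 2 gave 0.19 and leaving out DMSO library 2 gave 0.23 for let-7b-3p, and leaving out DMSO library 2 gave -0.65 for let-7f-1-3p. They were scarce, at 4.52 and 6.11 CPM for let-7b-3p, 2.38 and 1.69 CPM for miR-98-3p and 1.12 and 0.577 CPM for let-7f-1-3p in DMSO and RSL3 libraries.

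The passenger share of the reads of both arms differed widely within the family, with the numbered loci of a name summed. It was highest for let-7d, where let-7d-3p made up 13.2% ± 0.98 of the reads of both arms in DMSO and 13.5% ± 0.73 in RSL3 libraries (SD, n = 3 per group). For let-7a it was 9.40% ± 1.17 and 9.58% ± 1.33. Its guide also comes from let-7a-2, but its only listed passenger is let-7a-1-3p, with a mature sequence identical to that of let-7c-2-3p.
let-7a-1-3p: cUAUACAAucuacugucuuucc
let-7c-2-3p: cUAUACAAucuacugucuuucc

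The reads of these 2 entries differed by at most 2 in any library, so they hold the same reads and do not separate let-7a from let-7c. In miR-98 the passenger held 1.86% and 1.79%, in let-7b 1.11% and 1.66%, in let-7c 0.823% and 0.954%, in let-7e 0.561% and 0.682%, and in let-7f 0.118% and 0.116% of the reads in DMSO and RSL3 libraries. The passengers of let-7g and let-7i were almost absent, with 2 to 10 and 1 to 7 reads per library against 13652 to 27853 and 15307 to 30701 reads of their guides.

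The balance of the arms was tested as the log2 ratio of 5p to 3p, with the numbered loci of a precursor name summed within an arm. Limma was run over all 203 precursor names with both arms past the filter, and 1.48% of these were called. Of the 7 let-7 and miR-98 names tested, 0 were called and 6 had a difference below 0, against 56.2% of all. Only let-7b reached an unadjusted p under 0.05, against 21.7% of all names. Its log2 ratio averaged 6.22 under DMSO and 5.68 under RSL3, a difference of -0.54 ± 0.23 (SE, limma adjusted p = 0.20), which rests on 16 to 35 reads of let-7b-3p per library. For let-7d it averaged 2.66 ± 0.12 under DMSO and 2.62 ± 0.09 under RSL3 (SD, n = 3 per group), a difference of -0.04 ± 0.19 (SE, limma adjusted p = 0.95). The other 5 differences were -0.28 for let-7e, -0.22 for let-7c, -0.11 for miR-98, -0.03 for let-7a and 0.05 for let-7f (limma adjusted p = 0.51 to 0.97). The let-7a and let-7c ratios use largely the same 3p reads, so they are not separate counts among the 6. The miR-98 difference depended on the CPM added before the ratio, at -0.043 with 0.5 and -0.28 with 5. Its 3p share of reads did not rise, at 1.86% in DMSO and 1.79% in RSL3 libraries.

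The cluster partners are the miR-99, miR-100 and miR-125 strands made beside let-7e, let-7c-1 and let-7a-2. The miR-99 and miR-100 strands share a seed of their own, and miR-125 is the vertebrate form of lin-4, which like let-7 was found as a timing gene in worms. Of 11 partner strands 10 were listed and tested. In limma and edgeR 0 of them were called. At an unadjusted p under 0.05 each had 2 on the higher and 0 on the lower side. Of all tested miRNAs 8.86% were on the higher side in each of these tools. DESeq2 called 1 partner higher, miR-99b-5p, where it called 2.55% of all miRNAs higher. Log2 fold changes were positive in 7 and negative in 3, with a median of 0.02, and 3 of the 10 (miR-99b-5p, miR-125b-5p and miR-125a-3p) were higher without overlap, where 12.3% of all tested miRNAs were.

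In the let-7e cluster on chromosome 17, a guide lies beside the partner with the smallest p. Between miR-99b and let-7e lie 94 bases, and between let-7e and miR-125a 367 bases, all within Spaca6. The sequence of miR-99b-5p is given beside let-7e-5p because these neighbours had log2 fold changes of opposite sign.
miR-99b-5p: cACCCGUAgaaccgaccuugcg
let-7e-5p: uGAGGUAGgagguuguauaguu

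The level of miR-99b-5p was 11720.5, 12457 and 12294 CPM under DMSO and 15161.5, 15817 and 23021 CPM under RSL3. All RSL3 libraries were above all DMSO libraries, and RSL3 library 3 stood far above the others. Its log2 fold change was 0.54 ± 0.16 (SE, limma adjusted p = 0.095), with adjusted p-values of 0.075 in edgeR and 0.019 in DESeq2. Without RSL3 library 3 it was 0.35 (limma adjusted p = 0.37), without RSL3 library 1 0.65 (limma adjusted p = 0.048) and without RSL3 library 2 0.62 (limma adjusted p = 0.039). The ratio of let-7e-5p to miR-99b-5p was 0.113, 0.122 and 0.124 in DMSO and 0.0985, 0.0814 and 0.0561 in RSL3 libraries, without overlap. This ratio was chosen after its values were seen, so no p is given for it. The other strands of the cluster, miR-99b-3p, miR-125a-5p and miR-125a-3p, had log2 fold changes of -0.00782, 0.02 and 0.22 (limma adjusted p = 0.98, 0.94 and 0.47).

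The clusters of let-7c-1 and let-7a-2 hold miR-99a and miR-100, and both hold a copy of miR-125b. The level of miR-125b-5p was 396, 338 and 303 CPM under DMSO and 406, 446 and 462 CPM under RSL3. The groups did not overlap, with RSL3 library 1 just above DMSO library 1, and the log2 fold change was 0.35 ± 0.13 (SE, limma adjusted p = 0.17). Its passenger from the let-7a-2 cluster, miR-125b-1-3p, had a log2 fold change of -0.33 (limma adjusted p = 0.31). For miR-99a-5p, which lies 656 bases from let-7c-1, the mean was 4890 ± 681 CPM under DMSO and 4912 ± 539 CPM under RSL3 (SD, n = 3 per group, log2 fold change 0.01, limma adjusted p = 0.98), beside -0.35 for let-7c-5p. For miR-100-5p it was 0.15 (limma adjusted p = 0.60), beside -0.17 for let-7a-5p. The guides let-7c-5p and let-7a-5p also come from other loci, so these pairs do not compare the products of a single transcript.

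**Figure D4:**
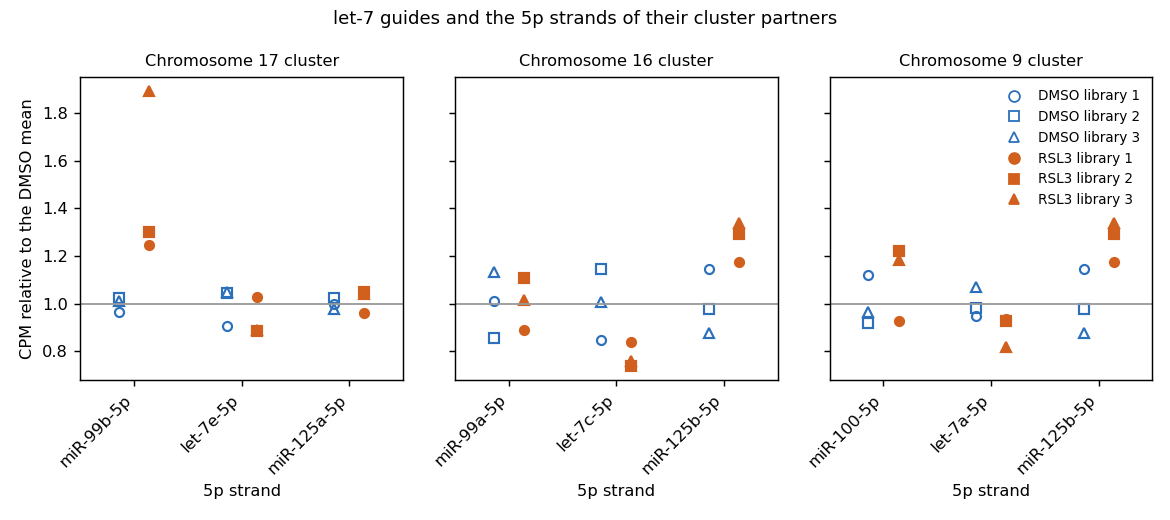
CPM of let-7e-5p, let-7c-5p and let-7a-5p and of the 5p strands made beside them, divided by the DMSO mean of each strand, with 1 symbol per library. The RSL3 symbols of miR-99b-5p lie above 1.2 and those of let-7c-5p below 0.9, where DMSO library 1 of let-7c-5p lies too. The strand miR-125b-5p appears in 2 panels because it has a copy in both clusters.

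The entries let-7j and let-7k, which are not counted among the members, have names of the family. The sequence of let-7j resembles let-7i-5p with a changed seed and a longer end, and that of let-7k is shorter than the guides.
let-7j: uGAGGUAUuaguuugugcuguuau
let-7k: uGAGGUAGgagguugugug

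The entry let-7j amounted to 175, 168 and 156 CPM under DMSO and 204, 206 and 165 CPM under RSL3 (log2 fold change 0.20, limma adjusted p = 0.43), so its sign was opposite to that of let-7i-5p. This was 3.63%, 3.52% and 2.68% of let-7i-5p in DMSO and 4.69%, 4.28% and 4.06% in RSL3 libraries. The entry let-7k had 3 to 20 reads per library.

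Among 217 other miRNAs with a mean of at least 100 CPM, those whose log2 level over the 6 libraries was most like the summed guides were miR-466c-5p (Pearson's r = 0.98), miR-598-3p (0.97) and miR-669c-5p (0.95). The level of miR-466c-5p overlapped between the groups, at 427, 477 and 492 CPM under DMSO and 442, 424 and 401 CPM under RSL3. That of miR-598-3p was 1320, 1461 and 1496 CPM under DMSO and 1282, 1182 and 1108 CPM under RSL3, without overlap. The groups did not overlap in miR-669c-5p either. All 3 were picked for likeness to a sum without overlap, so a lack of overlap in them is not a separate result. These r values are the highest of many correlations over libraries that share a scaling, and they are given as a description. Within the family, r between the log2 level of a guide and of the sum of the other guides ran from 0.41 for let-7f-5p and 0.51 for let-7d-5p to 0.98 for let-7g-5p and miR-98-5p over the same 6 libraries.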

How the data were processed

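Per the labels' protocols, adapters were joined to both ends of total RNA, inserts of 15 to 35 nt were size-selected, and reads ran for 50 cycles. Per the submitters' processing notes, cutadapt, Bowtie and edgeR were used with build GRCm38. No settings are named, nor what was done with reads matching more than 1 miRNA. The deposited signal, named CPM by the authors, came out as whole reads for 100% of values (within 0.01) once divided by the value of 1 read, and its scaling equalled the TMM-scaled total of the recovered reads over the listed miRNAs. A change in total miRNA per cell would therefore not be seen.

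From this deposited signal, limma 3.58.1 in R 4.3.3 was run on log2(CPM + 1) for the 666 miRNAs with at least 1 CPM in at least 3 libraries, with a mean-variance trend, two-sided, adjusted by Benjamini-Hochberg at 0.05. Fold changes on this scale understate changes of low miRNAs. Plain CPM had been assumed in the plan, and the test was kept. Alternatives on the recovered reads were edgeR 4.0.16 (quasi-likelihood) and DESeq2 1.42.0. Single values were compared by exact permutation over libraries. The arm ratio summed numbered loci within an arm. The limma tests of miRNAs and of arm ratios were tested on simulated data, and the other tests were not. The 10 members are named throughout, with the 4 passenger strands and 4 partners of smallest p and the 3 miRNAs most like the summed guides. Other passengers, partners, let-7j and let-7k were named after their values were seen. The members and lists were chosen with earlier results of these data known.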

Additional observations from a re-analysis of the deposited data

How the results depend on the processing

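Of the alternatives tried (pseudocounts of 0.5 and 5, no filter or 10 CPM, quantile normalization, centring on the median, rescaling that leaves out the 5 most abundant miRNAs, no trend or a robust trend, the replicate block, edgeR, DESeq2 and leaving out each library), every one called 0 members and 0 passenger strands, although DESeq2 gave 4 passengers no adjusted p. The filter at 10 CPM kept only let-7a-1-3p, let-7c-2-3p and let-7d-3p of the passengers, so the others could not be called there. Without DMSO library 1, DMSO library 3 or RSL3 library 1, let-7f-1-3p did not pass the filter. Arm ratios were run only with the pseudocounts, the filter at 10 CPM, the trend settings, the replicate block and each library left out, and 0 were called. The filter at 10 CPM kept only let-7a, let-7c and let-7d, so the arm ratios of let-7b, let-7e, let-7f and miR-98 could not be called there. Guide shares were also run as log2 ratios to the geometric mean of the guides, with the replicate block and with each library left out. They could not reach the threshold at this size in any setting, so they say nothing on stability. Guides lower at an unadjusted p under 0.05, 3 as reported, were 1 without DMSO library 2, without RSL3 library 3, with no trend and with the replicate block. They were 2 with median centring and without DMSO library 3, and 4 with the rescaling. The number of cluster partners called, 0 as reported, was 1 in DESeq2 (miR-99b-5p). Over the fits that each omit 1 library it was 0 to 1, reached without RSL3 library 1 and without RSL3 library 2. The ratio of the summed guides kept its direction, at 0.809 to 0.893, and at 0.809 to 0.880 with 1 library omitted. The exact permutation p of the sums was 0.1 with any DMSO library omitted and 0.2 with any RSL3 library omitted. All 9 guides had negative log2 fold changes in every alternative except without DMSO library 3 and without RSL3 library 3, where let-7f-5p turned positive. With a library left out let-7f-5p ran from -0.097 to 0.030, the share of let-7d-5p differed by -0.043 to 0.046 percentage points and that of let-7i-5p by -0.66 to 0.64, and the arm ratio differed by -0.16 to 0.085 for let-7a, -0.091 to 0.025 for let-7d and -0.20 to 0.26 for let-7f, so these signs rest on single libraries. The adjusted p of miR-98-5p ran from 0.059 to 0.41 and that of let-7c-5p from 0.10 to 0.50. Rescaling moved the median of all miRNAs to -0.05 and raised the share with a negative log2 fold change from 49.8% to 55.7%, and median centring lowered it to 44.6%. Over all 666 miRNAs the calls, 4 higher and 1 lower, ranged from 1 to 17 higher and 0 to 19 lower. The labels do not say whether replicate numbers pair the libraries. The correlation of deviations of same-numbered libraries was -0.35, -0.33 and -0.19, and no library correlated best with its own number. These correlations do not show how the cultures were handled, so pairing stays unknown. With the replicate block 0 members were called, the calls over all miRNAs were 1 higher and 0 lower, and the summed guides had an exact p of 0.25, the smallest that 3 pairs allow. Depth limits the passengers of let-7g and let-7i, whose arm ratios were not tested.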
